A study of Danio rerio with 3 samples.

Results

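The cells described here are the non-cycling activated epicardial cells of the zebrafish ventricle at 3 days post amputation (dpa). They were chosen by a gate on single-cell counts of unique molecular identifiers (UMIs, each standing for 1 captured RNA molecule). A member had at least 5 UMIs and at least 4 UMIs per 10000 of ptx3a, col12a1b and col11a1a summed, fewer than 5 UMIs of the cell cycle genes top2a, cdk1, ccnb1, tpx2, cdc20 and ccna2 summed, and no UMI of the leukocyte gene ptprc. In all, 538 cells met the rule, which is 14.2% of the 3788 cells of the 3 dpa library that passed the filters and lacked ptprc (exact binomial 95% interval 13.1 to 15.4%). The 3 libraries together held 15627 kept cells.

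The study sorted nucEGFP+ cells from ventricles of EK fish that carried the tcf21:nucEGFP reporter, all at 6 months of age, and asked which cell states the epicardium takes during heart regeneration. One library each came from fish after partial ventricular amputation, taken at 3 dpa and at 7 dpa, and from fish with no treatment (Ctrl). The reporter sets what could be seen, since the sort was set to take cells with tcf21 promoter activity, and transcripts of leukocytes, cardiomyocytes, endothelial cells and erythrocytes were still found at low levels. The labels name no animals behind a library, so cells of 1 library are not replicates. Each condition is 1 sample, no p-value can be given, and every interval here covers counting error only.

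The epicardium is the mesothelial sheet over the heart. In zebrafish it has an epithelial outer layer, in which podxl, a sialomucin of apical membranes, and aldh1a2, the enzyme that makes retinoic acid, are used as markers, and a mesenchymal inner layer marked by hapln1a, a linker protein of hyaluronan, and pdgfra, a receptor for PDGF. After injury the sheet turns on embryonic genes, lays down extracellular matrix and releases secreted factors. Of the genes of the gate, ptx3a codes for a secreted pentraxin of innate immunity and matrix, col12a1b for a collagen that sits on fibril surfaces, and col11a1a for a chain of fibrillar collagen XI.

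The 3 dpa library had 52513639 UMIs over 4390 droplets, of which 3905 passed the filters with a median of 9623 UMIs per cell. The same median was 4311.5 in the 5098 kept Ctrl cells and 5435.5 in the 6624 kept cells at 7 dpa. Kept cells of the 3 dpa library shared 7 barcodes with Ctrl and 6 with 7 dpa, and the members shared 1 with each. Members were deep cells, with a median of 23472 UMIs and 3439.5 genes, against 8183.5 UMIs and 1626.5 genes in the 3250 other cells without ptprc, and a median of 1.87% against 1.34% of UMIs on mitochondrial genes. A gate that asks for 5 UMIs favours deep cells, so the comparisons were repeated at equal depth, with every cell thinned at random to 5000 UMIs, which left 535 members and 2255 other cells. The comparison with all other cells was also repeated with those cells weighted to the depths of the members.

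The values that chose the members are given as description. The 3 gate genes gave a member 5 to 173 UMIs (median 18), or 4.001 to 45.5 UMIs per 10000 (median 8.22). All 3 genes were found in 263 members, while 72 lacked ptx3a, 31 lacked col12a1b and 230 lacked col11a1a. Just inside the limit lay 84 members with 4 to 5 UMIs per 10000. Just outside it lay 89 non-cycling cells with 3 to 4 UMIs per 10000, and 5 cells that had the level but only 4 UMIs. The 175 non-cycling cells that missed on level alone had a median depth of 23295 UMIs, and the 41 that missed on UMIs alone 4384. Of the members, 431 had no UMI of the 6 cell cycle genes and 107 had 1 to 4.

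The same gate found few cells in the other libraries. It took 2 of 5010 cells without ptprc in Ctrl (0.0399%), 538 at 3 dpa and 115 of 6450 at 7 dpa (1.78%, 1.47 to 2.14%). Cells that met the activated gate but had 5 or more UMIs of the cycle genes numbered 0 in Ctrl, 121 at 3 dpa and 0 at 7 dpa, the last allowing a share of up to 0.0572%. With 1 library per condition the fish, the injury and the library cannot be told apart, and the libraries also differed in depth.

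Markers outside the gate were checked against the label. Fibronectin 1a, fn1a, a matrix protein of the activated epicardium, was found in 99.4% of members and stood at 28.8 UMIs per 10000, against 13.6 in the other cells (ratio 2.11). It was also found in 99.3% of members against 77.4% of other cells at equal depth, and in 38.5% of the ptprc+ droplets of the library. Of all 117 ptprc+ droplets 15 were among the 122 highest doublet scores. Against other cells weighted to the members' depths the ratio of fn1a was 1.49, no longer past the fold used below. With only the non-cycling other cells weighted in this way it was 1.79, which was past that fold. The epicardial transcription factor tcf21, which drives the reporter, had no UMI in 2 of the 538 members and stood lower over all of them, at 21.8 against 35.3 UMIs per 10000 (ratio 0.617, and 0.893 after depth weighting). These markers do not go against the label as activated epicardial cells, and no measurement here bears on the word progenitor.

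Across genes, members and other cells of the 3 dpa library were set side by side. A gene was called higher or lower where the whole 95% interval of the ratio of its levels (UMIs per 10000, summed over the cells of each group) lay beyond 1.5-fold. Of 12452 genes outside the gate with at least 50 UMIs, 459 were called higher in members (3.69%) and 901 lower (7.24%), with a median ratio of 0.998. These are descriptions of 1 library, since the gate used cells of the same library. At equal depth all 459 higher genes and 899 of the 901 lower genes lay on the same side of 1, and 318 and 447 of them were still past the fold with the fewer UMIs left. The shares of 3.69% and 7.24% hold for the pooled comparison only. Over all tested genes the median ratio was 1.07 at equal depth. It was 0.952 against depth-weighted other cells and 1.01 against the non-cycling ones. Fewer genes were called higher against depth-weighted other cells, so list counts under these settings cannot be read against the pooled shares. Among the 15 genes that led each way, the retinol transporter stra6, the tendon transcription factor scxa and the matrix genes col12a1a, col11a1b and lum led the higher ones. The growth factor mdkb, the annexin partner s100a10a and the complement gene c4 were among the leading lower ones.

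**Figure D1:**
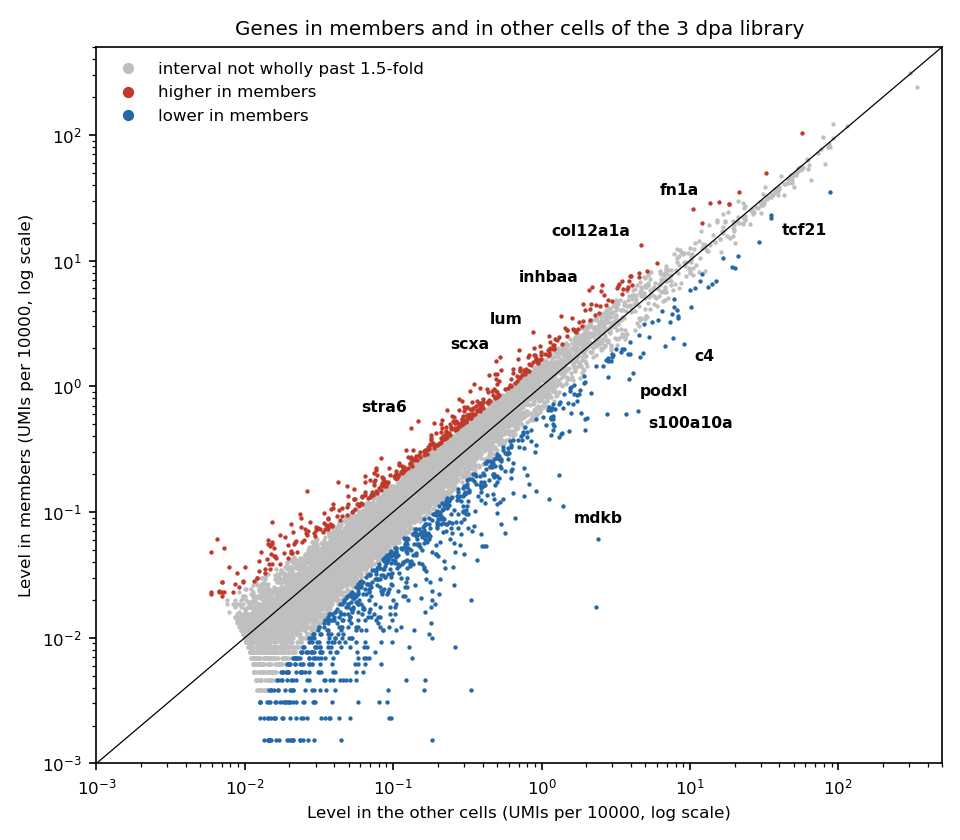
Level of each tested gene in the 538 members (vertical axis) against the 3250 other cells (horizontal axis) of the 3 dpa library, in UMIs per 10000 on log scales. Red points are the 459 genes called higher and blue points the 901 called lower, and fn1a lies above the line of equal levels while tcf21, c4, podxl, s100a10a and mdkb lie below it.

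The highest ranked gene, stra6, which codes for the membrane receptor that takes up retinol, stood at 0.532 UMIs per 10000 in members (0.493 to 0.573), against 0.146 in other cells (0.134 to 0.159), a ratio of 3.64. It was found in 13.6% of members and 3.28% of other cells at equal depth, against 1.28% of ptprc+ droplets. It was lower in each nearby set as well, at 0.199 in cycling activated cells, 0.0679 in epithelial-gated cells and 0.195 in mesenchymal-gated cells. Over all Ctrl cells without ptprc its level was 0.0052. The cytokine partner crlf1a followed at 0.469 against 0.132 (ratio 3.56), and its known partner in mammals, clcf1, had a ratio of 4.06 at the low level of 0.173 against 0.0426.

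Scleraxis, scxa, the transcription factor of tendon and ligament cells, stood at 1.71 UMIs per 10000 in members against 0.522 in the other cells (ratio 3.27, 3.08 to 3.48). At equal depth 36.4% of members had a UMI of it, against 11.5% of other cells and 1.28% of ptprc+ droplets. The inhibin beta A gene inhbaa, which codes for the subunit of activin A, stood at 5.83 against 2.08 (ratio 2.81), yet only 39.4% of members had a UMI of it at equal depth, against 17.7% of other cells. It was uneven among members, with 1 cell reaching 61 UMIs of the 5000 kept.

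Several of the higher leaders were matrix genes or process matrix proteins. Collagen XII alpha 1a, col12a1a, the paralog of a gate gene, stood at 13.4 against 4.65 (ratio 2.88) and was found in 95.3% of members and 53.4% of other cells at equal depth, with 21.8% in ptprc+ droplets. The paralog of the other gate collagen, col11a1b, stood at 1.57 against 0.494 (ratio 3.19). Lumican, lum, a proteoglycan that spaces collagen fibrils, stood at 2.68 against 0.874 (ratio 3.06). Lysyl oxidase, loxa, which cross-links collagen and elastin, stood at 0.923 against 0.329 (ratio 2.80). The endoplasmic reticulum (ER) proline isomerase fkbp9 had a ratio of 2.82, the ER calcium-binding protein rcn3 2.77 and the chondroitin sulfotransferase chst11 3.26. The remaining leaders were PAMR1 (1 of many), zgc:92161, si:dkey-12l12.1 and zgc:103438, with ratios of 3.01, 2.88, 2.77 and 2.65.

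Many of the lower leaders were highest in the epithelial-gated or the mesenchymal-gated cells of the same injured heart library. Midkine b, mdkb, a heparin-binding growth factor, stood at 0.112 UMIs per 10000 in members against 1.40 in other cells (ratio 0.0799) and at 3.75 in mesenchymal-gated cells. Complement c4 stood at 2.16 against 9.15 (ratio 0.236) and at 24.6 in mesenchymal-gated cells. The fibrinogen-like gene fgl2b, the alcohol dehydrogenase adh8a and the BMP and Wnt antagonist sostdc1a had ratios of 0.136, 0.163 and 0.218 and were likewise highest in mesenchymal-gated cells among the sets compared. The annexin A2 partner s100a10a stood at 0.637 against 4.44 (ratio 0.143) and at 9.76 in epithelial-gated cells. The epithelial marker podxl stood at 1.14 against 3.88 (ratio 0.294), and the keratin krt91 at 2.08 against 6.81 (ratio 0.305).

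Depth weighting changed the size of some of these ratios. Against depth-weighted other cells all 30 leaders stayed on their side of 1. The ratio of c4 was 0.642, that of fgl2b 0.506, that of mdkb 0.270 and that of rasgef1ba, a Ras exchange factor, 0.626. Sestrin 1, sesn1, the translation repressor eif4ebp3, the linker histone h1fx, the glucocorticoid-inactivating enzyme hsd11b2, endouc and ppdpfa completed the lower leaders with ratios of 0.178, 0.196, 0.285, 0.279, 0.230 and 0.276 before weighting.

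**Figure D2:**
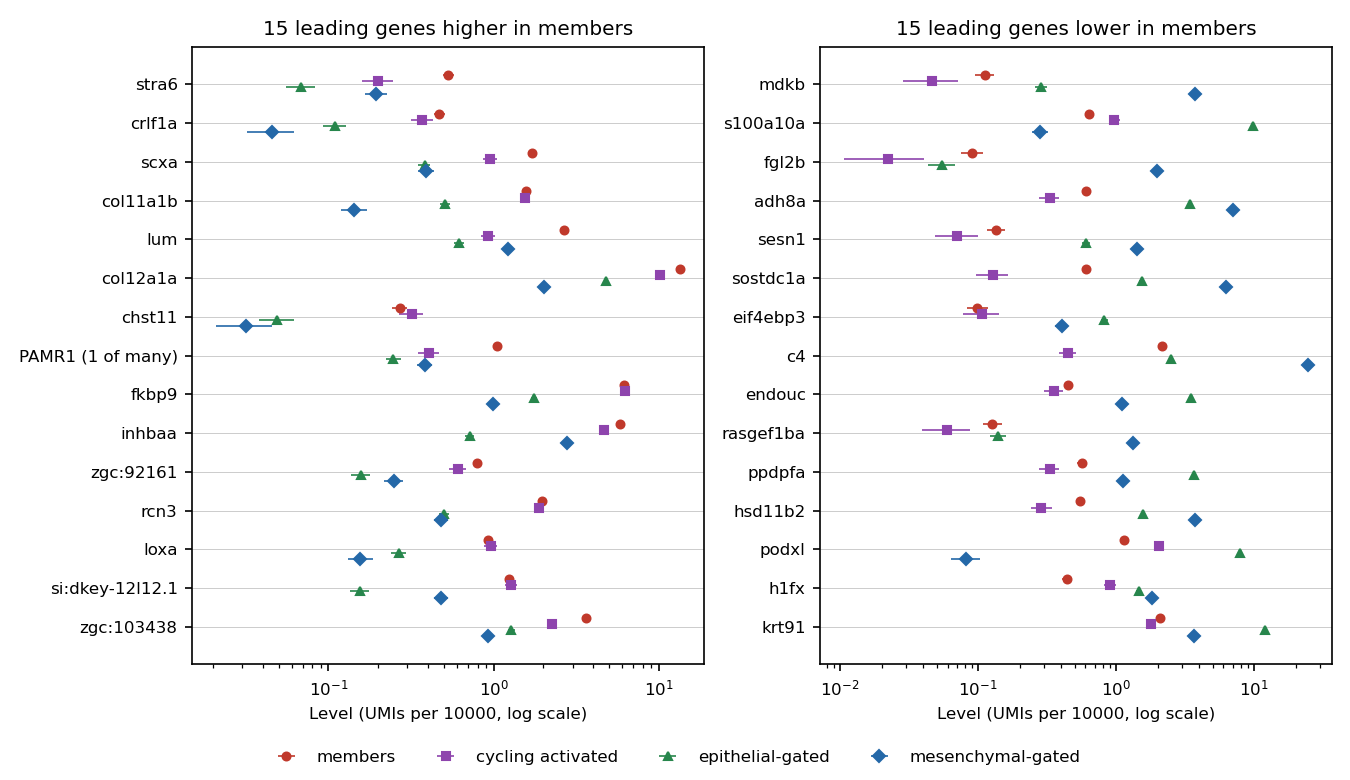
Levels of the 15 leading higher genes (left) and the 15 leading lower genes (right) in members, cycling activated cells, epithelial-gated cells and mesenchymal-gated cells of the 3 dpa library, in UMIs per 10000 on a log scale, with 95% Poisson intervals. Members and cycling activated cells lie close together for col12a1a, col11a1b, fkbp9 and loxa, while podxl and s100a10a are highest in epithelial-gated cells and c4, mdkb and fgl2b in mesenchymal-gated cells.

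Genes of collagen production were higher in members as groups. Of 32 tested genes for collagen folding and cross-linking, 15 were called higher and 0 lower (median ratio 1.62), and of 13 fibrillar collagens and their partners 6 were higher and 0 lower (median 1.46), where 3.69% of all genes were called higher. The collagen V chain col5a1, which starts fibrils, stood at 29.3 UMIs per 10000 in members against 15.7 in other cells (ratio 1.86). The collagen I chains col1a1b, col1a2 and col1a1a had ratios of 1.64, 1.54 and 1.52. The ER isomerase fkbp11 had a ratio of 2.52, the procollagen C-proteinase enhancer pcolce2b 2.51 and the collagen chaperone serpinh1a 1.98. With depth-weighted non-cycling other cells the counts were 15 of 32 and 7 of 13, and with all depth-weighted other cells 8 of 32 and 6 of 13.

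Genes of the general secretory machinery were higher as well, in a number that depended on how depth was matched. Of 65 tested ER chaperones and secretion genes, 38 were called higher and 1 lower in members (median ratio 1.61). The cargo receptor lman1 had a ratio of 2.498, the ER retrieval receptors kdelr3 and kdelr2b 2.25 and 2.19, and the cochaperone dnajb11 2.18. The ER chaperone hspa5 stood at 6.93 against 3.86 UMIs per 10000 (ratio 1.79). The count was 36 of 63 at equal depth, 15 of 65 against depth-weighted non-cycling cells and 3 of 65 against all depth-weighted other cells, in which cycling activated cells carried 21.1% of the weight. The lower gene was pdia2 (ratio 0.2403).

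Few genes of the other housekeeping lists were called in the pooled comparison. Of 96 nuclear-coded genes of oxidative phosphorylation, 4 were called higher and 1 lower (median ratio 1.38), with 22 of 94 higher at equal depth and 0 of 96 against depth-weighted cells. None of the 43 proteasome subunits and none of the 80 cytosolic ribosomal proteins was called either way, with median ratios of 1.28 and 0.96, though 4 of 42 proteasome genes were higher at equal depth. Growth and translation factors had 2 of 47 higher, redox genes 3 of 39 higher and 5 lower, and glycolysis genes 0 of 24 higher and 2 lower. The interferon response list had 0 of 29 higher and 3 lower.

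**Figure D3:**
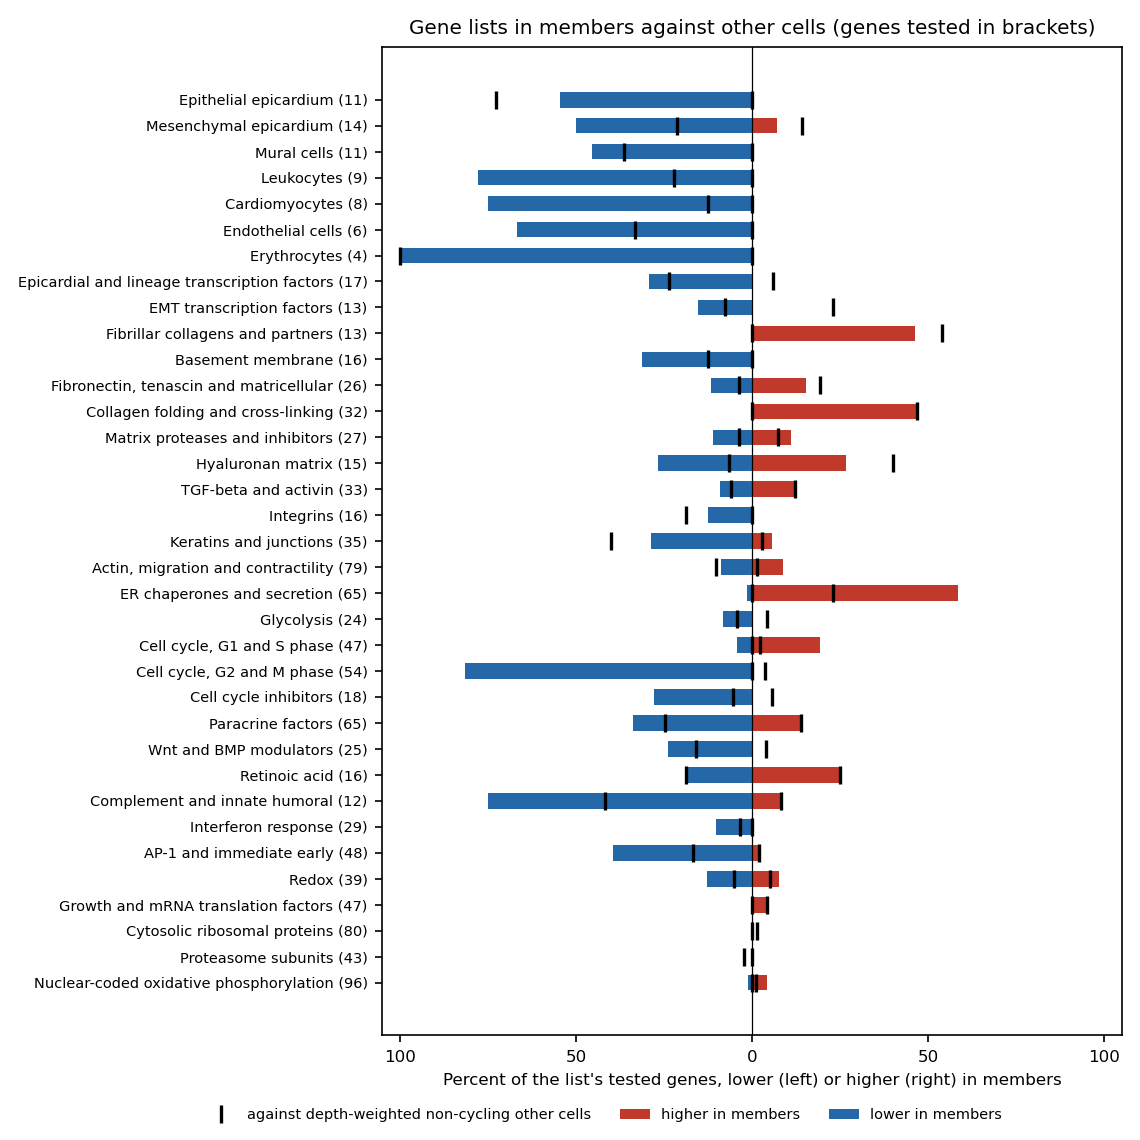
Share of the tested genes of each list called higher (red, to the right) or lower (blue, to the left) in members against all other cells of the 3 dpa library, with black ticks for the comparison with non-cycling other cells weighted to the members' depths. Under that weighting collagen folding has 15 of 32 and fibrillar collagens 7 of 13 higher genes, ER chaperones have 15 of 65, and the G2 and M phase genes, lowered by the gate itself, have 0 lower.

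Matrix outside the fibrillar collagens was mixed. Of 16 basement membrane genes 0 were called higher and 5 lower in members, among them the collagen IV chains col4a1 and col4a2, where 7.24% of all genes were lower. Against depth-weighted other cells 2 of the 16 were lower, and also 2 against the non-cycling ones. Fibronectin, tenascin and matricellular genes had 4 of 26 higher and 3 lower, with fn1a, lum, the tendon thrombospondin thbs4b (ratio 2.58) and the collagen triple helix repeat gene cthrc1a (0.905 against 0.435 UMIs per 10000, ratio 2.08) on the higher side, and 2 higher and 1 lower against depth-weighted other cells. With depth-weighted non-cycling cells 5 of the 26 were higher and 1 lower. The fibronectin paralog fn1b stood at 33.0 against 43.3 (ratio 0.763) and was called neither way. Of 15 genes of the hyaluronan matrix, 4 were higher and 4 lower, and 3 and 1 against depth-weighted other cells. Set against the non-cycling ones 6 were higher and 1 lower. The proteoglycan vcana, the precursor enzymes uap1 and gfpt2 and the hyaluronan synthase has1 had ratios of 2.32, 2.15, 1.69 and 1.83. The linker hapln1a stood at 1.84 against 4.85 (ratio 0.379), the paralog vcanb had a ratio of 0.515 and the hyaluronan-degrading cemip 0.492, and the remaining lower gene, the receptor hmmr, is also a gene of mitosis. Matrix proteases and their inhibitors had 3 of 27 higher and 3 lower, the lower ones being plaua, plaub and adamts5. After depth weighting 1 was called each way, and 2 were higher and 1 lower against the non-cycling cells.

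Many markers of the epithelial and mesenchymal layers were lower in members, beyond podxl and hapln1a. Of 11 epithelial markers 6 were called lower and 0 higher (median ratio 0.35), and of 14 mesenchymal markers 7 were lower and 1, the clusterin gene clu, was higher (20.1 against 12.08 UMIs per 10000, ratio 1.66). Against depth-weighted other cells 6 epithelial markers were lower and 0 higher, while 3 mesenchymal markers were lower, 2 higher and their median ratio was 1.08. Keratins and junction genes had 10 of 35 lower and 2 higher, the mesenchymal cadherin cdh11 (ratio 2.35) and the tight junction gene cldn11a (ratio 2.32). Integrins had 0 of 16 higher and 2 lower, and actin, migration and contractility genes 7 of 79 higher and 7 lower. The higher actin genes depended on how depth was matched. At equal depth 8 of 76 were higher and 5 lower. Against all depth-weighted other cells 1 of the 79 was higher and 5 lower, and 1 and 8 against the non-cycling ones.

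No transcription factor of the epicardium was called higher. Of 17 tested epicardial and lineage factors 5 were called lower and 0 higher. The cardiac factor tbx20 stood at 0.0153 UMIs per 10000 in members against 0.103 (ratio 0.148), gata5, gata6 and the epicardial factor tbx18 had ratios of 0.424, 0.441 and 0.475, and the fifth was tcf21. Against depth-weighted other cells 2 of the 17 were lower and 1 higher. Of 13 tested factors of the epithelial to mesenchymal transition (EMT) 2, zeb2a and zeb2b, were lower and 0 higher. The EMT factor snai2 had a ratio of 1.54 (1.37 to 1.72) and snai1a 1.36, neither past the fold. The EMT list changed with depth weighting, with 2 of 13 higher and 1 lower against depth-weighted other cells, where snai1a had a ratio of 1.84. At equal depth 0 of 9 were higher and 1 lower.

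Many immediate early genes were lower. Of 48 AP-1 and immediate early genes 19 were called lower and 1, egr3, higher (ratio 1.86), with a median of 0.69. The AP-1 subunit fosab stood at 8.73 UMIs per 10000 in members against 20.1 in other cells (ratio 0.433), the Myc paralogs mych and mycb had ratios of 0.407 and 0.440 and the glucocorticoid-responsive klf9 0.311. Against depth-weighted non-cycling cells 8 of the 48 were lower, and against all depth-weighted other cells 3. The complement list had 9 of 12 genes lower and 1, clu, higher (median 0.42), with the factor D gene cfd at a ratio of 0.159, and 5 of the 12 were lower against depth-weighted non-cycling cells and 3 against all depth-weighted other cells.

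Secreted factors split both ways. Of 65 tested paracrine genes 9 were called higher and 22 lower in members, and 6 and 14 against depth-weighted other cells. Midkine a, mdka, stood at 103 UMIs per 10000 against 57.1 (ratio 1.80) while its paralog mdkb was the leading lower gene. The chemokine cxcl12a stood at 6.11 against 3.84 (ratio 1.59), and the PDGF ligands pdgfba and pdgfab had ratios of 3.00 and 2.67. Interleukin 11a, il11a, had a ratio of 2.40 from 76 UMIs over all members. Among the lower genes igfbp2a had 0 UMIs in members, where 3 UMIs would be a level of 0.0023, against 0.0404 in other cells, and bmp4 had 2 UMIs.

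Ligand and receptor lists of known pathways showed similar splits. Of 33 genes of TGF-beta and activin signalling 4 were higher, inhbaa, the latent TGF-beta carrier lrrc32 (ratio 2.07), fstl1a (1.78) and the feedback inhibitor smad7 (1.61). The 3 lower ones were the activin beta B subunit inhbb (0.221), the activin antagonist fsta and smad6a. Of 16 retinoic acid genes 4 were higher, stra6, the binding protein crabp2b (2.36), the degrading enzyme cyp26b1 (1.69) and the retinol dehydrogenase rdh10b (1.57). The retinol carrier rbp4, at 13.9 against 29.1 UMIs per 10000 (ratio 0.480), dhrs9 and crabp1a were lower, and the synthesis enzyme aldh1a2 was called neither way (ratio 0.860). Wnt and BMP modulators had 0 of 25 higher and 6 lower, among them the secreted Wnt antagonist frzb (ratio 0.113).

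The gate removed cells with transcripts of mitosis, so the 44 of 54 G2 and M phase genes called lower are no result. The G1 and S phase list had 9 of 47 genes higher and 2 lower. Among the higher ones were the replication helicase genes mcm2 and mcm6 at ratios of 2.06 and 1.92, cdca7a at 2.03 and gins2 at 1.96. The gate did not use these tested genes, but its cycle rule put the cycling activated cells among the other cells. The count is therefore not independent of the rule. Against depth-weighted non-cycling cells 1 of 47 was higher and 0 lower, and against all depth-weighted other cells 0 were higher and 5 lower. With pcna and mcm2 to mcm7 summed at equal depth, 55 of 535 members (10.3%, 7.84 to 13.2%) had 5 or more UMIs, against 36.4% of cycling activated cells, 6.33% of epithelial-gated and 1.04% of mesenchymal-gated cells. Some members thus carried replication transcripts although they met the non-cycling rule. Cell cycle inhibitors had 5 of 18 lower, among them btg2 and cdkn1cb with ratios of 0.454 and 0.396, and 2 of 18 lower after depth weighting.

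A list of 17 genes came from the study's text on its 3 dpa cluster and on regeneration factors, and not all of them, nrg1 and prrx1b for example, are named there as markers of that cluster. Of these 17, 5 were called higher in members: loxa, fn1a, serpinh1a, the ATP synthase subunit atp5mc1 (ratio 1.75) and the ER chaperone hsp90b1 (ratio 1.75). That list was chosen on these cells and is no independent evidence. The other 12 were called neither way, with tgfb1a and prrx1a at 1.55 and 1.53, psmb1 at 1.46, marcksb at 1.37, tmsb4x at 1.22, hmgb2b at 1.01 and cav1 at 0.734. Against depth-weighted other cells 3 were higher, loxa, prrx1a and the EMT factor snai1a, and 1 was lower, cav1, while marcksb and hmgb2b stood on the other side of 1, at 0.879 and 0.736. Against the non-cycling ones 6 were higher and 2 lower, with marcksb at 1.36 and hmgb2b at 1.25.

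Many markers of other cell types were lower in members than in all other cells, and fewer were after depth weighting. The 12 leukocyte markers summed to 0.272 UMIs per 10000 in members and 0.780 in other cells, against 120 in the 117 ptprc+ droplets, and c1qb was at 0 UMIs in members. The cardiomyocyte markers summed to 0.526 against 2.099, with a UMI of myl7 in 66 members, and the endothelial markers to 0.0582 against 0.301. The erythrocyte markers summed to 0.0834 against 5.26, with alas2 and slc4a1a at 0 in members. Genes called lower on these lists numbered 7 of 9, 6 of 8, 4 of 6 and 4 of 4, and their part in the other lower counts was not tested. Against depth-weighted other cells these numbers were 2, 1, 3 and 4, with median ratios of 1.06, 1.07, 0.526 and 0.008. The mural markers summed to 9.92 against 11.8, with 5 of 11 lower and 0 higher. Of the 117 ptprc+ droplets 5 met the activated gate on its 3 genes, and 19 members were among the 122 highest doublet scores of the library.

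The first nearby set was the cycling activated cells. Members met the same gate on ptx3a, col12a1b and col11a1a as these 121 cells and differed by the cycle rule, with a median of 23472 UMIs against 35112. Of 9687 genes, 325 were called higher in members (3.36%) and 695 lower (7.17%), with a median ratio of 0.880. The 10 leading lower genes, from nusap1, hmmr and aspm to aurka and plk1, all belong to mitosis and follow from the gate, and knl1 had 0 UMIs in members. The higher side held genes of the mesenchymal layer, and also markers of cardiomyocytes. The layers were not evenly held, as 59 of the 538 members and 1 of the 121 cycling activated cells were mesenchymal-gated, while 58.0% of members and 86.8% of cycling activated cells were epithelial-gated, and the part of this in the differences was not tested. The paralog fn1b stood at 33.0 UMIs per 10000 in members against 7.87 in cycling activated cells (ratio 4.199), while fn1a stood at 28.8 against 32.5. The linker hapln1a had a ratio of 6.45, the calcification inhibitor mgp 5.24, c4 4.85, sostdc1a 4.72 and the interferon-induced ifitm1 4.34. Of 14 mesenchymal markers 8 were higher and 0 lower, and of 10 complement genes 6 were higher and 0 lower. Of 5 tested cardiomyocyte markers 4 were higher and 0 lower (median ratio 5.27), among them myl7 and tnnt2a. The part of RNA from other cells in this comparison was not tested. Collagen folding had 1 of 30 higher and ER chaperones 0 of 63. Of 45 G1 and S phase genes 26 were lower in members, but the cycle rule itself parts these sets, so that count is description only.

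Non-members were gated into an epithelial and a mesenchymal set for comparison. Epithelial-gated cells (931) had at least 3 UMIs of podxl and aldh1a2 summed and at least 3 times as many as of hapln1a and pdgfra, and mesenchymal-gated cells (1151) met the reverse rule, both outside the activated gate and non-cycling. Their median depths were 14652 and 6530 UMIs, and the 4 genes of these rules are description here.

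Against epithelial-gated cells, 928 of 10812 genes were called higher in members (8.58%) and 721 lower (6.67%). The activin subunit inhbaa stood at 5.83 UMIs per 10000 in members against 0.716 (ratio 8.15), the cadherin cdh11 at 0.583 against 0.0679 (ratio 8.59), the secreted angptl2a at 1.26 against 0.180 (ratio 6.97) and cxcl12a at 6.11 against 1.28 (ratio 4.79). The retinol receptor stra6 had a ratio of 7.84. Of 31 collagen folding genes 23 were higher and 0 lower, and of 13 fibrillar collagens 10 and 0. The EMT factor list had 4 of 12 higher and 1 lower, with snai1a at 0.538 against 0.147 (ratio 3.65) and snai2 at 0.375 against 0.146. On the lower side, frzb stood at 0.127 against 2.27 (ratio 0.0560) and s100a10a at 0.637 against 9.76 (ratio 0.0653). The genes ucmaa and c3a.1 of the epithelial marker list, the claudin cldnc and the junction gene jam2b had ratios of 0.0756, 0.110, 0.108 and 0.109. Of 11 epithelial markers 9 were lower and of 32 keratins and junction genes 17 were lower and 4 higher. The level of fn1b, 33.0 against 34.7, and that of tcf21, 21.8 against 27.6, were called neither way.

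Against mesenchymal-gated cells more genes were called than in the other comparisons at 3 dpa, and the gap in depth was the widest. Here 2563 of 10073 genes were called higher in members (25.4%) and 998 lower (9.91%), with a median ratio of 1.27 rather than 1. Each list should be read against those shares. The matrix gene cthrc1a stood at 0.905 against 0.0455 UMIs per 10000 (ratio 19.9), fhl1a had a ratio of 16.05 and the globin cygb1 11.95. Complement c4 stood at 2.16 against 24.6 (ratio 0.0880), dermatopontin dpt at 3.26 against 20.7 (ratio 0.157) and fn1b at 33.0 against 77.5 (ratio 0.427), whereas fn1a stood at 28.8 against 5.44 (ratio 5.29). Proteasome subunits had 41 of 42 higher, nuclear-coded oxidative phosphorylation 82 of 94 and G1 and S phase genes 42 of 45. ER chaperones and secretion genes had 46 of 64 higher, but cytosolic ribosomal proteins only 2 of 80. At equal depth 2562 of the 2563 higher genes and 996 of the 998 lower genes lay on the same side of 1. Of these, 1733 and 596 were still past the fold with the fewer UMIs left. The list counts given here were made before thinning, and the part of depth in them was not tested. Basement membrane genes had 10 of 15 lower and 1 higher, and complement genes 9 of 11 lower and 0 higher. Fibrillar collagens had 4 of 13 higher and 1 lower, and col1a2, at 50.03 against 36.3, was called neither way.

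Members did not all meet 1 layer gate. By the same rule 312 members were epithelial-gated (58.0%, 53.7 to 62.2%), 59 mesenchymal-gated (10.97%, 8.45 to 13.9%) and 167 neither (31.0%), of which 133 had at least 3 UMIs of both pairs of genes. At 5000 UMIs per cell 41.3% were epithelial-gated and 11.8% mesenchymal-gated, so the epithelial-gated share was lower at equal depth. The epithelial gate rested on aldh1a2 more than on podxl in members, as 180 of the 312 (57.7%) had no UMI of podxl, against 152 of the 931 epithelial-gated non-members (16.3%), which were shallower. Across all members aldh1a2 was found in 94.6% of cells and podxl in 29.4%.

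Between members of the 2 gates most of the higher leaders were called neither way, while most of the lower ones were called. Between epithelial-gated and mesenchymal-gated members, 6.49% of 7837 genes were called higher and 3.87% lower. Of the 15 higher leaders, 12 were called neither way, fkbp9 and rcn3 higher and lum lower. Of the 15 lower leaders, podxl belongs to the layer rule, 10 were lower in epithelial-gated members, among them mdkb, fgl2b, sesn1 and hsd11b2, s100a10a was higher and 3 were called neither way. Epithelial-gated and mesenchymal-gated members had col12a1a at 12.9 and 13.8 UMIs per 10000, scxa at 1.39 and 1.77, crlf1a at 0.397 and 0.462 and cdh11 at 0.574 and 0.503. Lumican was higher in the mesenchymal-gated members, 2.08 against 6.01. Outside the 4 genes of the rule, the actin-binding tmsb1 stood at 3.53 in epithelial-gated members against 0.402 in mesenchymal-gated ones (ratio 8.78), the tight junction gene tjp2b at 1.18 against 0.211 and the chemokine cxcl8a at 1.29 against 0.241. The chemokine ccl25b stood at 0.405 against 6.201 (ratio 0.0653), dpt at 1.55 against 10.0 (ratio 0.155), c4 at 1.11 against 7.15, the selenium carrier selenop at 2.57 against 12.18 and fn1b at 24.6 against 74.8. Set beside non-members of the same gate, s100a10a was 0.908 in epithelial-gated members against 9.76 in epithelial-gated non-members, and c4 was 7.15 in mesenchymal-gated members against 24.6 in mesenchymal-gated non-members.

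Genes also varied with the summed level of the gate genes, which is description since the bins use the values that chose the members. Members were binned at 4 to 8, 8 to 16, 16 to 32 and 32 or more UMIs per 10000, with 251, 228, 53 and 6 cells, and the last bin is too small to carry a trend. Over the first 3 bins fn1a stood at 25.2, 28.2 and 39.1 UMIs per 10000, col12a1a at 11.03, 14.3 and 18.4, col1a2 at 41.8, 50.9 and 74.0 and hspa5 at 5.84, 7.13 and 9.52. The opposite order held for tcf21, at 24.6, 21.7 and 13.0, for s100a10a, at 1.097, 0.282 and 0.165, and for the keratin krt15, at 43.5, 30.7 and 17.9. The 6 cells of the last bin had fn1a at 79.0, tcf21 at 1.67 and fn1b at 0.555, and median depth ran over the 4 bins from 22355 to 36609.5 UMIs.

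Members were also grouped by their UMIs of the gate gene col11a1a. This split was chosen after the values were seen and is a description. At 5000 UMIs per cell 344 members had 0 UMIs of col11a1a, 83 had 1, 67 had 2 to 3 and 41 had 4 or more. In that order tcf21 stood at 29.6, 17.7, 13.9 and 5.27 UMIs per 10000, and fn1b at 52.5, 20.99, 12.8 and 7.07. The retinol carrier rbp4 stood at 21.2, 13.6, 7.10 and 2.49 and c4 at 4.06, 0.892, 0.328 and 0.195. Some genes of matrix secretion ran the other way, with fn1a at 21.7, 30, 33.4 and 46.9 and col1a2 at 43.0, 51.1, 56.2 and 82.0. The collagen chaperone serpinh1b stood at 1.36, 3.30, 4.69 and 5.95 and cthrc1a at 0.331, 0.940, 1.07 and 3.32. The chromatin protein hmga1a stood at 0.459, 1.33, 2.09 and 2.59. Other matrix genes were highest in members with 0 UMIs of col11a1a. Among these lum stood at 3.67, 2.17, 1.76 and 2.05 and dpt at 6.02, 2.17, 1.13 and 0.195.

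Several genes followed neither order. The keratin krt8 stood at 36.9, 45.8, 49.1 and 34.6 UMIs per 10000 and col12a1a at 14.3, 13.2, 11.01 and 13.02. The gate gene ptx3a stood at 3.38, 3.64, 2.78 and 3.22. As the gate sums its genes, members with little col11a1a needed ptx3a or col12a1b to enter. The values of ptx3a, and of any gene that goes with ptx3a or col12a1b, are therefore description only. The leading gene stra6 was highest where col11a1a had no UMI, at 0.884, 0.145, 0.0896 and 0.537, and scxa stood at 2.22, 1.20, 0.836 and 0.732. The genes that led the comparison with other cells did not all peak in the same members.

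Depth, layer and replication moved along with col11a1a. The median depth before thinning was 20634.5, 28475, 28849 and 32092 UMIs over the 4 classes, the epithelial-gated share 47.4%, 72.3%, 80.6% and 80.5%, and the share with 5 or more UMIs of pcna and mcm2 to mcm7 6.98%, 15.7%, 13.4% and 22.0%. Within epithelial-gated members alone, tcf21 stood at 10.9 UMIs per 10000 with 2 or more UMIs of col11a1a against 24.1 with none, and fn1b at 11.4 against 42.4. Within members gated neither way tcf21 stood at 9.70 against 33.8, and within cycling activated cells, which met the same gate, at 6.51 against 16.5. Of the non-cycling other cells, which did not meet it, only 12 had 2 or more UMIs of col11a1a. In these 12 cells tcf21 stood at 18 against 44.4 in the 1943 with none, and fn1b at 16.8 against 57.7. The gene cthrc1a had 0 UMIs in the 12, against a level of 0.152. Across the 535 thinned members Spearman's rho was 0.642 between fn1b and tcf21, −0.546 between fn1b and col11a1a and −0.511 between tcf21 and col11a1a. These cells share 1 library, and the depth of a cell before thinning had a rho of −0.415 with fn1b, −0.348 with tcf21 and 0.395 with col11a1a. As the gate used col11a1a in its sum, these values are description, and the part of the gate in them was not tested.

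**Figure D4:**
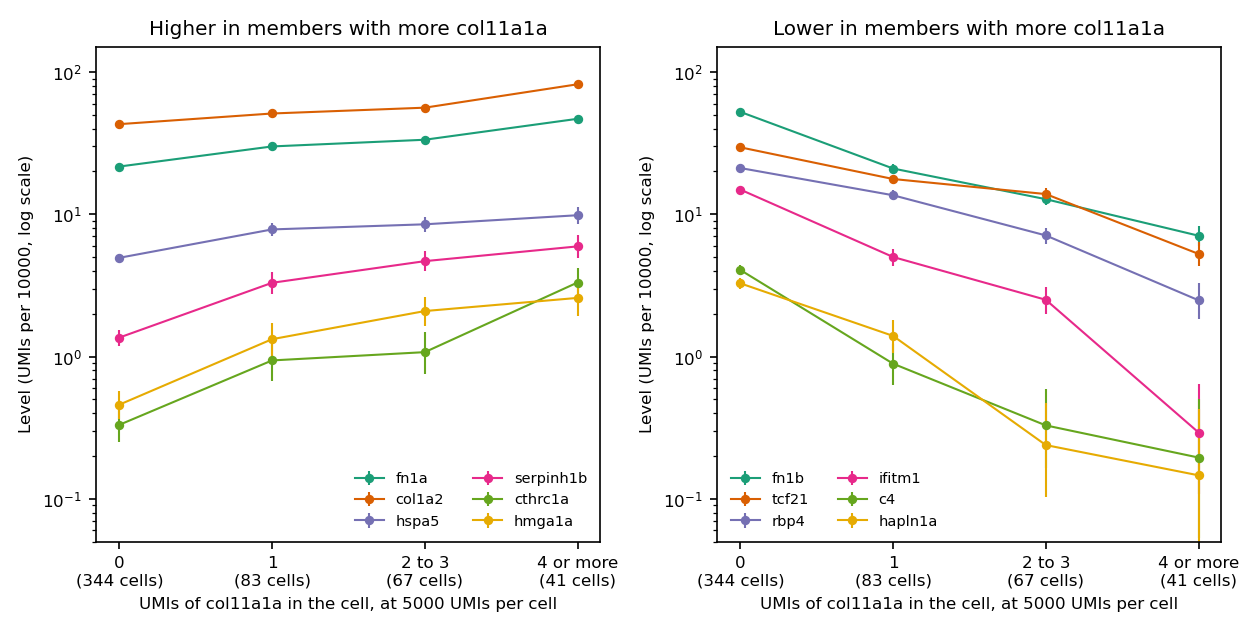
Levels in members grouped by their UMIs of col11a1a after thinning to 5000 UMIs per cell, in UMIs per 10000 on a log scale with 95% Poisson intervals. The left panel shows genes that are higher with more col11a1a, such as fn1a (21.7 to 46.9) and cthrc1a, and the right panel genes that are lower, such as fn1b and tcf21 (29.6 to 5.27).

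Some genes were uneven over the members, and some of these were found in few of them. Over 2194 genes with a mean of at least 0.2 UMIs per thinned cell the median ratio of variance to mean was 1.19. The highest ratio was 52.1, for CR318588.1, which has only a clone name here and was found in 34.6% of members. It was 50.01 for ccl25b, found in 15.9% of members with up to 123 UMIs in 1 cell, and 46.2 for cxcl8a, found in 10.3%. It was 26.4 for si:ch211-106h4.12, found in 17.4%, and 13.9 for the antiviral gene rsad2, found in 10.7%. For the interferon-induced ifi45 it was 24.7 and for inhbaa 14.99, found in 46.2% and 39.4%. Other uneven genes were found in most members. They were CR383676.1, another clone name (43.3, found in 99.6%), fn1b (31.95, 83.9%), cxcl18b (21.2, 85.4%), krt15 (17.1, 93.3%) and clu (15.01, 93.5%). Pairs that went together were rsad2 and isg15 (rho 0.566), podxl and tmsb1 (0.563), the annexin anxa2a and s100a10b (0.585) and krt15 and gstm.3 (0.573).

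Members also lay near one another with ptx3a, col12a1b, col11a1a and the 4 layer genes left out. Of the 20 nearest neighbours of a member, 59.1% were members, which made up 19.2% of the 2790 thinned cells. Cell cycle genes, which the rule also used, were left out only in an alternative. There 56.2% of neighbours were members and 11.4% cycling activated cells. Cycling activated cells gave 8.79% of neighbours and 4.34% of cells, epithelial-gated cells 12.9% and 29.5%, and mesenchymal-gated cells 7.80% and 27.6%. Of 535 members 387 had 10 or more member neighbours and 5 had none. Epithelial-gated members had 60.7% member, 17.0% epithelial-gated and 2.18% mesenchymal-gated neighbours, and mesenchymal-gated members 43.6% member, 6.02% epithelial-gated and 28.3% mesenchymal-gated neighbours.

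The 7 dpa library, whose cells the choice of members did not use, allowed the same gate to be read in another library. It is not independent of the gate genes, since the paper named ptx3a and col12a1b from clusters of all its libraries. This comparison was added after the 3 dpa values were seen. Its 115 gated cells had a median of 12092 UMIs against 5309 in the 6335 other cells without ptprc, and 18 were epithelial-gated and 65 mesenchymal-gated. Of 11614 genes 373 were called higher (3.21%) and 328 lower (2.82%) in gated cells. Of the 459 genes higher at 3 dpa, 400 were tested at 7 dpa, and 352 of these (88.0%) had a ratio above 1, where 46.3% of all tested genes did. There 125 were called higher and 0 lower, which is 27.2% of the higher genes at 3 dpa and 33.5% of those at 7 dpa. Of the 901 lower genes 752 were tested and 664 (88.3%) had a ratio under 1, where 53.7% of all did. There 209 were called lower and 8 higher. With the cells of the 7 dpa library thinned to 5000 UMIs, which left 112 gated and 3393 other cells, 369 of the 373 higher and all 328 lower genes lay on the same side of 1, and 204 and 114 were still past the fold.

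The leading genes lay on the same side in both libraries. All 15 higher leaders had a ratio above 1 at 7 dpa and 14 were called, and all 15 lower leaders had a ratio under 1 and 13 were called. Collagen XII alpha 1a, col12a1a, stood at 11.08 UMIs per 10000 in gated cells at 7 dpa against 1.41 in other cells (ratio 7.84), col11a1b at 1.54 against 0.163 (ratio 9.44) and stra6 at 0.580 against 0.0719 (ratio 8.06). The ER gene rcn3 was the higher leader not called, with 1.63, and adh8a and c4 were the lower leaders not called, with 0.859 and 0.774. At equal depth 14 of the 15 higher leaders and all 15 lower leaders lay on their side of 1, the exception being zgc:103438, with a ratio of 0.935 against 2.14 before thinning. Fibronectin 1a, fn1a, stood at 14.8 against 4.02 (ratio 3.67) and tcf21 at 46.0 against 64.2 (ratio 0.716). The gate gene col11a1a was scarce at 7 dpa, at 0.339 in gated cells, whereas ptx3a stood at 4.09. Of 14 mesenchymal markers 2 were higher and 3 lower, and hapln1a stood at 10.8 against 8.54 (ratio 1.26). The lists of collagen folding and ER chaperones had 8 of 30 and 6 of 63 genes higher.

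**Figure D5:**
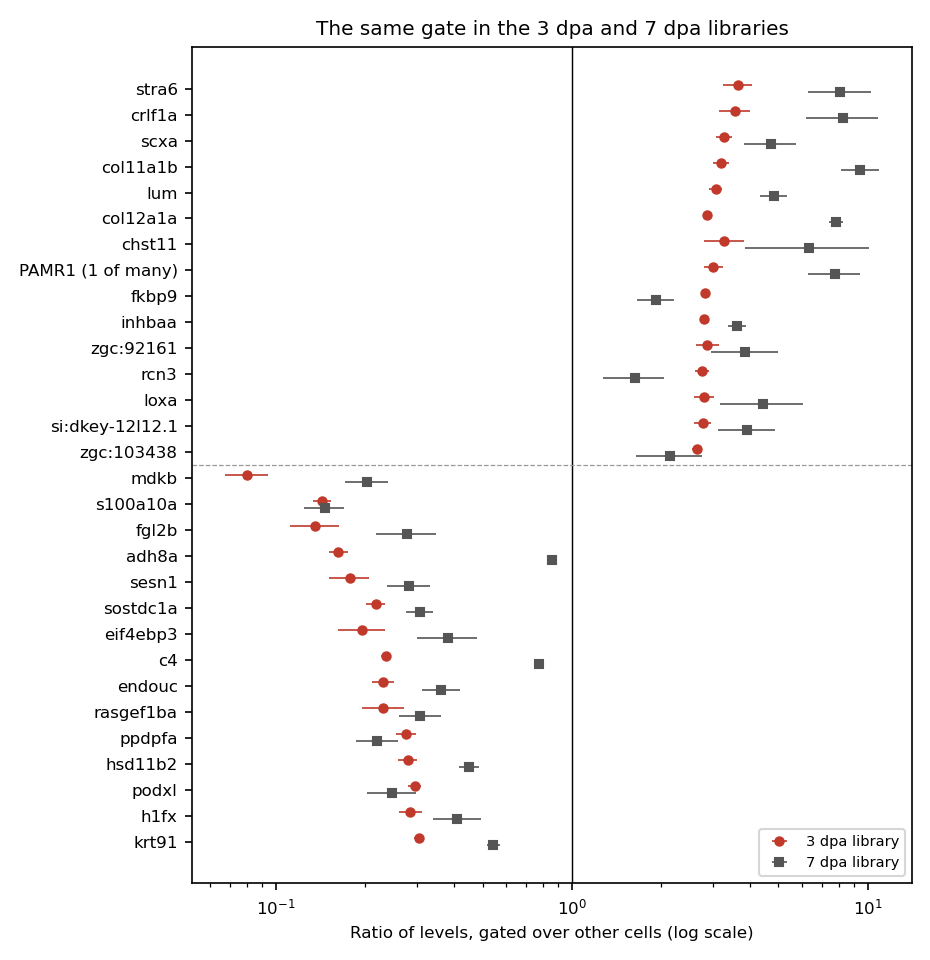
Ratio of the level in gated cells to that in other cells for the 15 higher and 15 lower leading genes, in the 3 dpa library (538 against 3250 cells) and the 7 dpa library (115 against 6335 cells), on a log scale with exact 95% intervals. All 30 genes lie on the same side of 1 in both libraries, with rcn3 (1.63), adh8a (0.859) and c4 (0.774) among those nearest to 1 at 7 dpa.

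Several of the leading higher genes, and fn1a, stood low in Ctrl, which was the shallowest library. Of its cells without ptprc 5.47% met the epithelial rule, against 34.6% of the other cells at 3 dpa, and the part of this was not tested. Among Ctrl cells without ptprc, the level of col12a1a was 0.276 UMIs per 10000, that of lum 0.1997, that of scxa 0.119, that of col11a1b 0.0068 and that of fn1a 0.915, each below the other cells of the 3 dpa library. The exception among the higher genes given here was inhbaa, which stood at 5.83 in members and 2.08 in the other cells at 3 dpa, against 5.18 in Ctrl. The gate genes ptx3a and col12a1b stood at 0.0220 and 0.0128 in Ctrl, and col11a1a had no UMI there.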

How the data were processed

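Single nucEGFP+ ventricular cells were profiled with the 10x Genomics 3′ v3 kit in 3 libraries, 1 each for Ctrl, 3 dpa and 7 dpa. The authors deposited unnormalized UMI counts of 32520 genes in each droplet, made with Cell Ranger 3.0.2 on GRCz10 per the submitters' processing notes, before any filter on cells. Strand and multi-mapping settings are not given in the sources used here.

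Droplets with at least 317 genes and at most 5% of UMIs on 13 mitochondrial genes were kept. Levels (UMIs per 10000) carry exact Poisson intervals, ratios exact conditional intervals and shares Clopper-Pearson intervals, all at 95%. Tested genes had at least 50 UMIs over both groups and were not gate genes. Leaders were the genes whose nearer interval bound lay furthest from 1, among those found in at least 25% of cells on the higher side and on the same side at equal depth, 15 each way against other cells and 10 each way against each set. Of 37 gene lists with 1391 entries, 1336 matched a symbol, and each list is given by its count and its members furthest from 1. Doublets were scored with Scrublet (scanpy 1.11.5) and kept, and removed in an alternative at 0.8% per 1000 droplets. Neighbours used 20 principal components of 2000 variable genes (scikit-learn 1.9.0). Other work used Python 3.11.15, numpy 2.4.6, scipy 1.17.1 and pandas 2.3.3, and the interval code was tested on simulated data. Alternatives covered the filters, the gate, the cycle rule, depth, the reference cells and the gene minimum. The members and lists were chosen with earlier results of these data known. No genome of the build was used, so no coordinates or sequences are given.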

Additional observations from a re-analysis of the deposited data

Results flagged for a closer look

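For 8 genes the gated cells were called lower than the other cells at 3 dpa and higher at 7 dpa, and they were picked out after their values were seen. The difference between the libraries was not tested, since each is 1 sample. Adrenomedullin b, admb, a vasodilator peptide, had a ratio of gated over other cells of 0.476 at 3 dpa and 2.65 at 7 dpa. The complement gene c4b had 0.548 and 1.66, and the augurin gene ecrg4a 0.261 and 2.502. The membrane gene ms4a17a.7 had 0.415 and 4.24, and the neuropeptide npb 0.463 and 3.12. These 5 genes were found in 15 to 88 of the 115 gated cells at 7 dpa. The other 3 rest on 1 to 3 of those cells and describe them alone. The hypoxia factor epas1b had ratios of 0.242 and 3.42, with 9 UMIs in 2 cells at 7 dpa, and at 5000 UMIs per cell its interval at 7 dpa ran from 0.278 to 9.72. The chemokine ccl19a.1 had 0.153 and 3.25, with 47 of its 49 UMIs at 7 dpa in 1 cell. The retinol-binding rbp2a had 0.171 and 2.60, with 7 UMIs in 1 member at 3 dpa and all 46 UMIs at 7 dpa in 1 cell, and its ratio at 7 dpa was 1.24 at 5000 UMIs per cell. Epithelial-gated cells were 312 of the 538 gated cells at 3 dpa and 18 of the 115 at 7 dpa, and the part of that difference was not tested.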

How the results depend on the processing

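The number of members was 276 with a gate of at least 10 UMIs and 8 per 10000, 350 with col12a1b and col11a1a only and 287 with ptx3a and col11a1a only, and between 464 and 770 under the other alternatives. Genes called higher numbered 725 with ptx3a and col11a1a only, 1357 against epithelial-gated or mesenchymal-gated non-cycling cells only, 1151 with the mean over cells, 209 against depth-weighted other cells and 1875 against cells with no gate UMI, the last chosen after seeing the data. Genes called lower numbered 421 and 362 in cells thinned to 5000 and 1800 UMIs, where fewer cells and UMIs entered, and 524 against depth-weighted non-cycling cells, chosen after seeing the data. The cause of the other moves was not tested. The epithelial-gated share was 65.1% with a ratio of 2 and 41.3% at 5000 UMIs. Member neighbours were 55.3% at 1800 UMIs and 56.2% without the cell cycle lists. For 35 named genes called in either direction, 0 of 560 ratios under 16 alternatives changed side of 1. The leaders among them were picked to lie far from 1 and on the same side at 5000 UMIs. That alternative could therefore not reverse them, and the count is no independent check. Keeping a side is also not keeping a call. Against depth-weighted other cells some were no longer past the fold, such as fn1a (1.49), atp5mc1 (1.17), hsp90b1 (1.30) and tcf21 (0.893). For all 47 named genes 11 of 752 did, in 5 genes called neither way, which were hmgb2b (0.736 to 0.964 where it crossed), marcksb (0.879), nrg1 (0.992), prrx1b (1.09 to 1.36) and aldh1a2 (1.14 and 1.204). Depth weighting rests on 49 other cells in its deepest bin, 20 of them non-cycling. No paired analysis was possible because each condition has 1 library, and for the same reason no replicate could be left out.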
